A study of Homo sapiens with 30 samples.

Results

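The DNA replication genes are 55 genes, out of 20367 gene symbols in the PRO-Seq table, that encode the proteins that copy chromosomal DNA, together with 3 E2F transcription factors that switch many of them on. The rule is a list of gene names and uses no measured value, and all 55 were found in the table, each with 1 transcript. RFC2 was listed with 0 reads in every sample, which left 54 genes with gene body counts that could be tested and 53 with counts in both regions, since RPA3, with 1 promoter-proximal read over the 9 samples, fell under the minimum mean of 10 counts. The samples came from G401, a malignant rhabdoid tumour cell line that lacks SNF5 (the product of SMARCB1), a subunit of the SWI/SNF chromatin remodelling complex. G401 cells were transduced with lentiviruses that carry a TET-inducible construct, selected with G418 as a population, and induced for 24 h with doxycycline at 1 μg/ml to express EGFP as a control, OmoMYC (OMOMYC in the sample names), a mutant of MYC that interferes with binding of MYC to DNA, or SNF5. All 3 constructs therefore share the loss of endogenous SNF5, the lentiviral vector and the doxycycline, and every comparison rests on 1 cell line. PRO-Seq, which maps active RNA polymerases, covered 3 samples per construct, as did ATAC-Seq for open chromatin, and MYC ChIP-Seq covered 2.

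Replication starts at origins, where the origin recognition complex, CDC6 and CDT1 load the MCM helicase in G1. In S phase the kinase CDC7 with its partner DBF4, and the factors CDC45, GINS and MCM10, turn the loaded helicase into a moving one, and the polymerases, the sliding clamp PCNA and the enzymes that join Okazaki fragments follow it. Many of these genes are bound by E2F factors, which RB1 and its relatives hold in check outside S phase, and MYC is known as a driver of entry into S phase and of E2F gene expression. PRO-Seq counts polymerases that are engaged at the moment of sampling, so these values describe transcription and not the amount of mRNA or protein. In a bulk sample, fewer cells that transcribe a gene and less transcription per cell cannot be told apart.

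Library totals ranged from 28444943 to 46957634 gene body reads and from 518900 to 3386528 promoter-proximal reads. The 3 libraries of replicate 1 stood apart, with 518900 to 672874 promoter-proximal reads and 49.7 to 67.3 gene body reads per promoter-proximal read, against 8.73 to 22.7 in the other 6. Reads on SMARCB1 numbered 4, 1 and 6 in the EGFP samples, 2, 5 and 4 in the OmoMYC samples and 2870, 4467 and 3440 in the SNF5 samples, in the direction that the labels give (log2 fold change with SNF5 9.74, SE 0.20, adjusted p = 4.75e-08). Markers of blood cells (PTPRC, CD3E), endothelium (PECAM1) and liver (ALB) had 0 to 12 reads over the 3 samples of any construct. No 2 samples of a construct were alike within sampling noise (chi-square per degree of freedom of at least 45.9). The p-values measure the spread left between samples after differences between replicate numbers were taken out, except where a fit without the replicate block is named. The study calls its replicates biological, and the labels do not say whether they were separate cultures.

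The promoters of these genes were searched for 2 motifs: the E2F site, read as TTTCGCGC or TTTGGCGC, and the E-box CACGTG that MYC binds, each on both strands. RefSeq promoters (GRCh38.p14, 250 bases before to 50 bases after the start) were on hand for 48 of the 55 genes and for 13295 genes of the table. An E2F site lay in 14 of the 48 (29.2%) and in 1.59% of all promoters, and CACGTG lay in 8 of the 48 (16.7%) and in 9.02% of all promoters. The windows printed here, with the motif in capitals, are a selection picked with earlier results of these data known. Other genes with a motif, among them MCM2, POLE, CHAF1A and GINS1, are not printed. The windows read 5′ to 3′ on the strand of the gene.
E2F2 E2F (chr1:23531257-23531286, minus strand): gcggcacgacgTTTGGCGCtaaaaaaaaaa
E2F1 E2F (chr20:33686387-33686416, minus strand): ggcaaaaaggaTTTGGCGCgtaaaagtggc
CDC6 E2F (chr17:40287875-40287904, plus strand): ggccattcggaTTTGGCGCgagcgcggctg
MCM3 E2F (chr6:52284728-52284757, minus strand): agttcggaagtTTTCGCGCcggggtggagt
MCM6 E2F (chr2:135876577-135876606, minus strand): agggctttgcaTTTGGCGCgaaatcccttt
MCM6 E2F (chr2:135876515-135876544, minus strand): cattggtcaggTTTGGCGCgaaatctccag
MCM7 E2F (chr7:100101388-100101417, minus strand): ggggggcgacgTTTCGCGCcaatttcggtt
MCM7 E-box (chr7:100101404-100101433, minus strand): gtggcgccggtCACGTGgggggcgacgttt
POLE2 E2F (chr14:49688201-49688230, minus strand): ctgcggcggtgGCGCCAAAtcgcaaatatg
POLA1 E2F (chrX:24693770-24693799, plus strand): gtcatcacaggGCGCCAAAcgcgcgtccgc
EXO1 E2F (chr1:241848197-241848226, plus strand): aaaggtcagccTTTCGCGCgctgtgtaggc
FEN1 E-box (chr11:61792870-61792899, plus strand): ggcgagcaggtCACGTGacgggagcgcggg
TIMELESS E-box (chr12:56449433-56449462, minus strand): tcgctcggagtCACGTGgaccagcccggct
RPA1 E-box (chr17:1829896-1829925, plus strand): catgggtgggtCACGTGggccgcgcctcgg
E2F2, E2F1, CDC6, MCM3, MCM7 and EXO1 carried their site on the gene's own strand close to the start, and POLE2 and POLA1 carried it on the opposite strand. In MCM6 the letters of both E2F forms overlapped on opposite strands, and the overlapping pair occurred once more further downstream, so that its 4 matches make 2 places. MCM7, MCM2 and MCM8 held both motifs. A match describes the letters and is not evidence of binding.

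Gene body reads, counted from 1 kb past the start to the end of the transcript, were lower with OmoMYC than with EGFP for 17 of 54 replication genes and higher for 0 (edgeR's quasi-likelihood test with the replicate number as a block, Benjamini-Hochberg adjusted p under 0.05 over all 15060 genes). Among all genes tested 4.42% were lower and 4.1% were higher. The median log2 fold change was −0.27 for the replication genes and 0.00 for all genes, and the fold change was below 0 for 52 of 54. The 17 were E2F2, MCM4, MCM6, MCM3, ORC1, MCM7, CDC6, CHAF1A, TIPIN, CDC45, RFC3, RPA1, LIG1, PRIM2, MCM2, ORC3 and POLE. No gene was higher, none had an unadjusted p under 0.05 in that direction, and DESeq2 also called 0 higher, with 25 lower. Without the replicate block 0 of the 54 were called, although 14 had an unadjusted p under 0.05 for lower counts. The calls also rest on single libraries: 0 remained called without EGFP replicate 1, EGFP replicate 2, OmoMYC replicate 1 or OmoMYC replicate 2, and 6 and 4 without SNF5 replicates 1 and 2, which enter this comparison through the spread and the block. Without EGFP, OmoMYC or SNF5 replicate 3 the numbers were 28, 34 and 33, and with all 3 libraries of a number left out 0, 0 and 50 were called for numbers 1, 2 and 3. Here and below, the shares of all genes called come from the edgeR fit of all samples with the block. Numbers called under other settings have no such share beside them, so they show only how far the calls depend on the setting.

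SNF5 gave lower gene body reads than EGFP for 29 of the 54 genes and higher for 0, where 16.5% of all genes were lower and 17.6% higher. The median log2 fold change was −0.30 for the replication genes and −0.025 for all genes, and 51 of 54 values were below 0. The 29 were E2F2, MCM7, TIMELESS, POLE2, CDT1, E2F1, FEN1, MCM5, TIPIN, POLD2, DNA2, RPA1, POLE, CHAF1B, RFC3, MCM10, POLD3, PRIM1, CHAF1A, LIG1, MCM2, GINS4, RPA2, CDC7, MCM3, PRIM2, POLD1, ORC3 and POLA1. None had an unadjusted p under 0.05 for higher counts, and DESeq2 called 34 lower and 0 higher. Without the replicate block 1 gene, MCM7, was called (adjusted p = 0.0414 from edgeR). The number fell to 15 without EGFP replicate 1, to 13 without EGFP replicate 2 and to 15 without SNF5 replicate 2, and with all 3 libraries of a number left out it was 9, 4 and 44 for numbers 1, 2 and 3. As above, no share of all genes called stands beside these alternative numbers.

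Both comparisons use the same 3 EGFP samples, so their lists are not independent. No overlap over all genes is set beside that of the replication genes, so the number shared is not read as agreement between the constructs. Of the genes lower with either construct, 12 were on both lists, 70.6% of the OmoMYC list and 41.4% of the SNF5 list: E2F2, MCM2, MCM3, MCM7, ORC3, CHAF1A, LIG1, POLE, PRIM2, RFC3, RPA1 and TIPIN. A further 5 passed the threshold with OmoMYC alone (CDC45, CDC6, MCM4, MCM6 and ORC1) and 17 with SNF5 alone, and 20 passed with neither. Setting each sample against the EGFP sample of the same number, 39 of 54 genes were lower in all 3 OmoMYC samples, where 27.5% of all genes were, and 43 of 54 were lower in all 3 SNF5 samples, where 31.5% of all genes were. The median change of the replication genes was −0.36, −0.37 and −0.072 on the log2 scale in OmoMYC replicates 1, 2 and 3, and −0.23, −0.31 and −0.30 in SNF5 replicates 1, 2 and 3. OmoMYC replicate 3 thus lay closer to its EGFP partner than the other 5 samples did to theirs. Before any scaling beyond the library total, these 55 genes took 0.5262%, 0.5493% and 0.5226% of gene body reads in the EGFP samples, 0.434%, 0.4605% and 0.5027% in the OmoMYC samples and 0.452%, 0.4675% and 0.427% in the SNF5 samples, and the EGFP values did not overlap with the others.

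**Figure D1:**
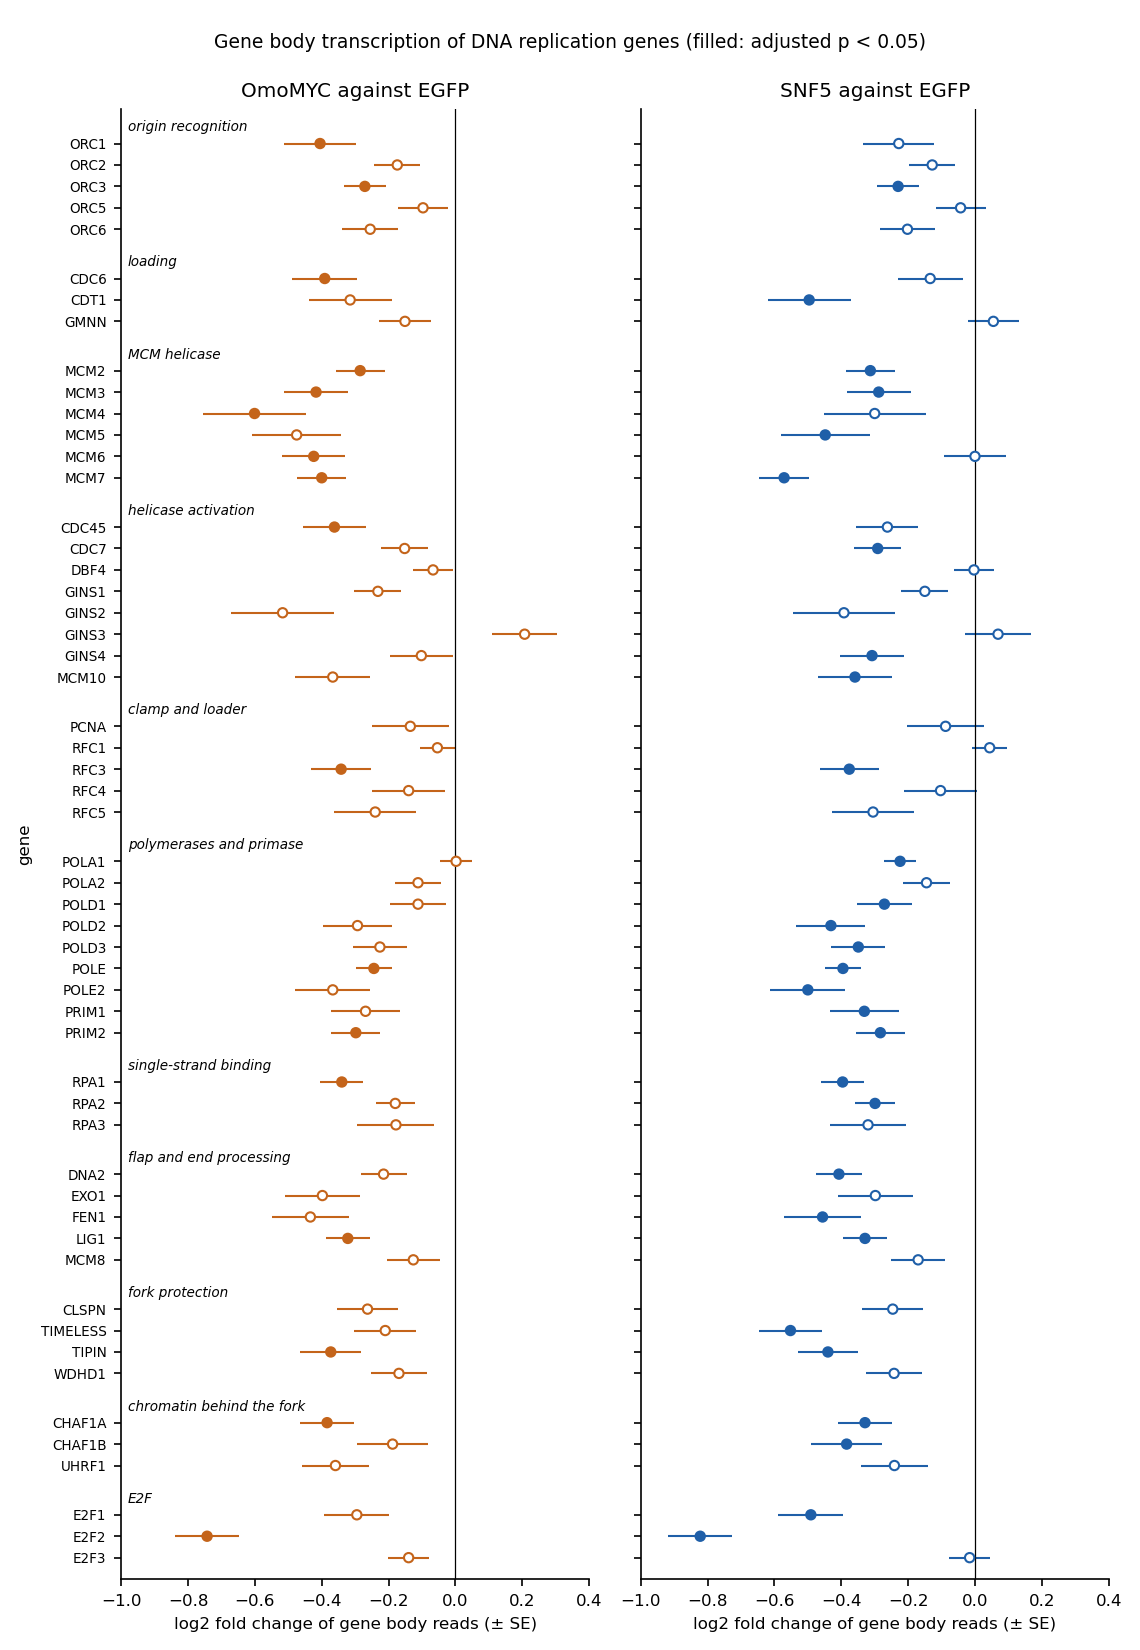
Log2 fold change of gene body reads (x axis) for each of 54 replication genes, grouped by role, with OmoMYC (left) and SNF5 (right) against EGFP, 3 samples per construct. Bars show the standard error and filled points an adjusted p under 0.05 (edgeR), and nearly all points lie left of 0: 52 of 54 with OmoMYC and 51 of 54 with SNF5.

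**Figure D2:**
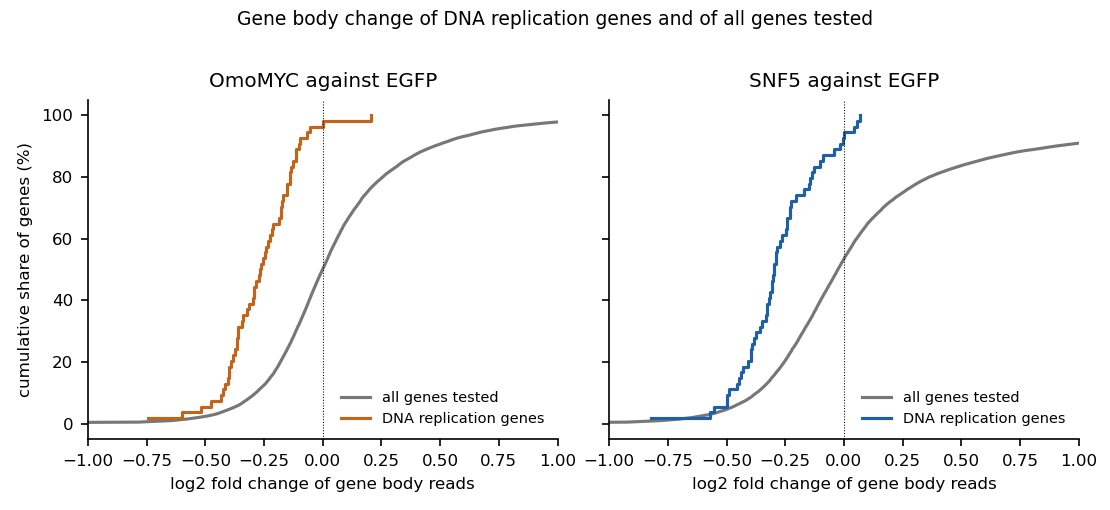
Cumulative share of genes (y axis, %) by log2 fold change of gene body reads (x axis) for the 54 replication genes (coloured steps) and all 15060 genes tested (grey), with OmoMYC (left) and SNF5 (right). The replication genes are shifted to lower values, with medians of −0.27 and −0.30 against 0.00 and −0.025 for all genes.

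The E2F factors, which activate replication genes, held the largest fall among the members. Normalised reads, which are reads scaled to the mean library size and are given here for replicates 1, 2 and 3 in that order, were for E2F2 (NM_004091, hg19 chr1:23832920-23857712, minus strand) 2033, 1677 and 1443 in the EGFP samples, 1087, 902 and 1060.2 in the OmoMYC samples and 1088, 927 and 888 in the SNF5 samples. No EGFP sample of E2F2 overlapped with a sample of either construct. The log2 fold change of E2F2 was −0.74 (SE 0.096, adjusted p = 0.0126) with OmoMYC and −0.82 (SE 0.096, adjusted p = 0.000466) with SNF5, a reduction by 40.3% and 43.4%. With SNF5 the call held with each library and each replicate number left out, at −0.93 to −0.76, and with OmoMYC it was lost without replicate 1 or 2 of EGFP or of OmoMYC, at −0.91 to −0.66 over these settings. E2F1 gave 1464, 999.6 and 1237 in the EGFP samples, 1048, 768 and 1201 in the OmoMYC samples and 1008, 726 and 894 in the SNF5 samples. E2F1 changed by −0.49 (SE 0.097, adjusted p = 0.0055) with SNF5 and by −0.29 (SE 0.097, adjusted p = 0.0854) with OmoMYC, and its EGFP and SNF5 values overlapped slightly, although each SNF5 sample was below the EGFP sample of its number. E2F3 passed the test with neither construct, at −0.14 and −0.016.

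The MCM2-7 helicase, the ring that unwinds DNA at the fork, was lower for 5 of its 6 genes with OmoMYC and for 4 of 6 with SNF5. Over all genes tested 4.42% were lower with OmoMYC and 16.5% with SNF5. MCM7 (hg19 chr7:99690404-99699427, minus strand) gave 3988, 3798 and 3856 in the EGFP samples, 2845, 2651 and 3349 in the OmoMYC samples and 2763, 2446 and 2635 in the SNF5 samples. Every OmoMYC and SNF5 sample of MCM7 was below every EGFP sample, with a log2 fold change of −0.40 (SE 0.074, adjusted p = 0.0256) with OmoMYC and of −0.57 (SE 0.074, adjusted p = 0.000784) with SNF5, and the SNF5 call held with each library and number left out (−0.63 to −0.52). MCM3 gave 4431, 4621 and 4354 in the EGFP samples, 3216, 2954 and 3902 in the OmoMYC samples and 4002, 3459.9 and 3534 in the SNF5 samples. MCM3 fell with OmoMYC by 0.42 (SE 0.097, adjusted p = 0.0367) on the log2 scale and with SNF5 by 0.29 (SE 0.096, adjusted p = 0.0462), and no EGFP sample was as low as any other. MCM2 fell by similar amounts with both constructs, at −0.28 (adjusted p = 0.0459) and −0.31 (adjusted p = 0.0112).

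MCM4, MCM5 and MCM6 passed with 1 construct each. MCM4 gave 3360.1, 3193 and 2727 in the EGFP samples, 1823, 1744 and 2528 in the OmoMYC samples and 2664, 2688 and 2180.0 in the SNF5 samples. OmoMYC replicates 1 and 2 of MCM4 were the lowest of the 9 and replicate 3 lay near the SNF5 samples, and the fold change was −0.60 (SE 0.15, adjusted p = 0.0466) with OmoMYC and −0.30 (SE 0.15, adjusted p = 0.157) with SNF5. MCM5 gave 3169.9, 2678 and 2474 in the EGFP samples, 1943, 1658 and 2353 in the OmoMYC samples and 2453, 1903 and 1759.5 in the SNF5 samples. No sample of MCM5 with either construct reached the EGFP range, though SNF5 replicate 1 came close to it, and the fold change was −0.45 (SE 0.13, adjusted p = 0.0295) with SNF5 and −0.47 (SE 0.13, adjusted p = 0.0586) with OmoMYC. MCM6 (hg19 chr2:136597196-136634011, minus strand) gave 3622, 3682 and 2826 in the EGFP samples, 2489.9, 2370.1 and 2616 in the OmoMYC samples and 3610.3, 3511 and 2982 in the SNF5 samples. The OmoMYC samples of MCM6 were below all others and the SNF5 samples overlapped with EGFP, with a fold change of −0.42 (SE 0.095, adjusted p = 0.0335) with OmoMYC and of 0.00 (SE 0.094, adjusted p = 0.998) with SNF5.

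**Figure D3:**
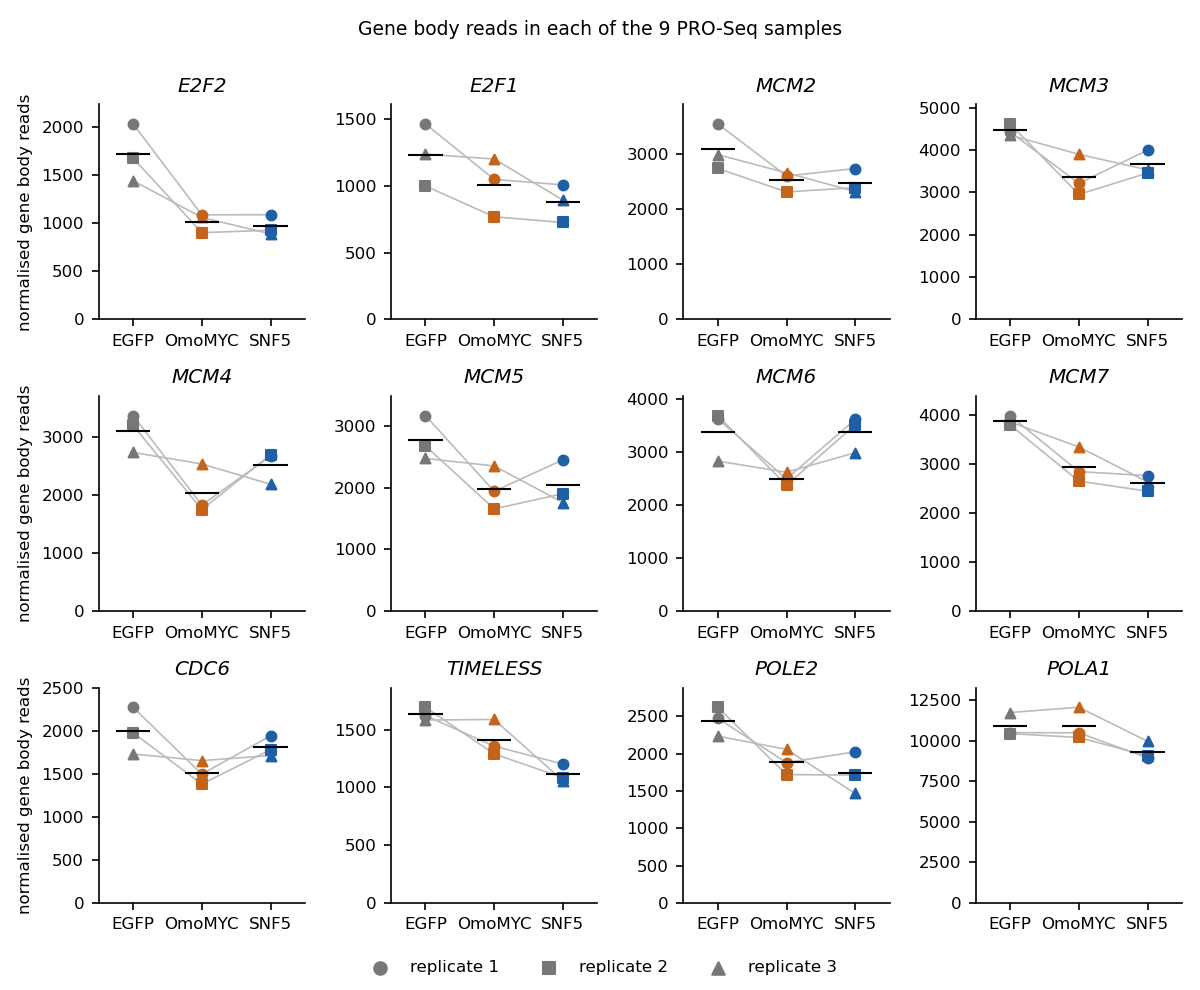
Normalised gene body reads (y axis, from 0) in each EGFP, OmoMYC and SNF5 sample for 12 replication genes. Symbols mark the replicate number, grey lines join samples of 1 number and black bars are means of 3 samples. All samples with either construct lie below all EGFP samples for E2F2, MCM2 (narrowly with SNF5), MCM3, MCM4, MCM5, MCM7 and POLE2. This holds with OmoMYC only for MCM6 and CDC6, with SNF5 only for TIMELESS and POLA1, and with neither for E2F1. Each of the 12 genes was called with OmoMYC, SNF5 or both, so they do not stand for the other replication genes. The share of all genes with such separation was not counted.

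Among the genes that mark origins and load the helicase, ORC1, ORC3 and CDC6 were lower with OmoMYC, and ORC3 and CDT1 were lower with SNF5. The shares of all genes that were lower are 4.42% with OmoMYC and 16.5% with SNF5, and these few calls are not read as a result about the group. ORC1, the ATPase of the origin recognition complex that comes and goes with the cell cycle, gave 2282, 2288 and 1840.0 in the EGFP samples, 1561, 1504 and 1733 in the OmoMYC samples and 2050.3, 1843 and 1579 in the SNF5 samples, and its fold change was −0.41 (SE 0.11, adjusted p = 0.0499) with OmoMYC and −0.23 (SE 0.11, adjusted p = 0.126) with SNF5. The EGFP and OmoMYC values of ORC1 did not overlap. CDC6, which recruits the helicase to the origin, gave 2275, 1978 and 1731 in the EGFP samples, 1497, 1382 and 1654 in the OmoMYC samples and 1944, 1781 and 1713 in the SNF5 samples, a change of −0.39 (SE 0.098, adjusted p = 0.0445) with OmoMYC and of −0.13 (SE 0.097, adjusted p = 0.317) with SNF5. CDT1, its partner in loading, gave 858, 524 and 844 in the EGFP samples, 587, 383 and 853 in the OmoMYC samples and 575, 386 and 613 in the SNF5 samples. The 3 replicates of CDT1 spread widely within each construct, yet each SNF5 sample was below the EGFP sample of its number, with a change of −0.50 (SE 0.12, adjusted p = 0.0147) against −0.32 (SE 0.12, adjusted p = 0.132) with OmoMYC. GMNN, the inhibitor of CDT1, passed with neither construct, at −0.15 with OmoMYC and 0.055 with SNF5. ORC3 was lower with both, at −0.27 and −0.23 (adjusted p = 0.0359 and 0.0208), and ORC2, ORC5 and ORC6 with neither.

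Of 8 genes that activate the helicase, CDC45 passed with OmoMYC, and CDC7, MCM10 and GINS4 passed with SNF5. Over all genes tested 4.42% were lower with OmoMYC and 16.5% with SNF5. CDC45, a part of the moving helicase, gave 4449.6, 3402 and 3135 in the EGFP samples, 2938, 2514 and 3019 in the OmoMYC samples and 3549, 2660.4 and 2932 in the SNF5 samples. Its EGFP values lay above the OmoMYC values and overlapped with the SNF5 values, and its fold change was −0.36 (SE 0.093, adjusted p = 0.0472) with OmoMYC and −0.26 (SE 0.093, adjusted p = 0.055) with SNF5. CDC7 changed by −0.29, MCM10 by −0.36 and GINS4 by −0.31 with SNF5 (adjusted p = 0.0132, 0.0355 and 0.0352). The 4 GINS subunits, which work as 1 complex, did not share a value: with OmoMYC they ran from −0.52 for GINS2 to 0.21 for GINS3, the highest value among the 54 genes, and neither passed the test. DBF4, the activator of CDC7, gave 5020.2, 4993 and 4064 in the EGFP samples, 4561, 4525 and 4292 in the OmoMYC samples and 4884, 4908 and 4229.6 in the SNF5 samples, and its changes of −0.067 (SE 0.059, adjusted p = 0.494) and −0.003 (SE 0.059, adjusted p = 0.976) did not pass.

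The polymerase and primase genes were the group most often called with SNF5, at 8 of 9, where 16.5% of all genes were lower. With OmoMYC 2 of 9 were called, where 4.42% of all genes were lower. POLE and PRIM2 passed with both constructs, and POLA2 with neither. POLE2, a subunit of the leading strand polymerase, gave 2473, 2621 and 2235 in the EGFP samples, 1879, 1719 and 2056 in the OmoMYC samples and 2024, 1712 and 1465 in the SNF5 samples. No value of POLE2 with either construct reached the lowest EGFP value, and it changed by −0.50 (SE 0.11, adjusted p = 0.00974) with SNF5 and −0.37 (SE 0.11, adjusted p = 0.0724) with OmoMYC. POLD2, a subunit of the lagging strand polymerase, gave 1014, 1124 and 1012 in the EGFP samples, 858, 800.2 and 909.9 in the OmoMYC samples and 884, 731 and 726 in the SNF5 samples, without overlap between EGFP and either construct, and changed by −0.43 (SE 0.1, adjusted p = 0.0125) with SNF5 and −0.29 (SE 0.1, adjusted p = 0.101) with OmoMYC. POLE, the catalytic subunit, fell by 23.9% with SNF5 and 15.6% with OmoMYC (adjusted p = 0.00106 and 0.0335). POLD1, POLD3 and PRIM1 passed with SNF5, at −0.27, −0.35 and −0.33. PRIM2 was at −0.30 and −0.28, but PRIM2 has near-identical copies in the genome that reads could not be told from with certainty.

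Of 5 tested clamp and clamp loader genes 1 was called for each construct (20% of them, where 4.42% of all genes were lower with OmoMYC and 16.5% with SNF5), and the fold change was below 0 for 5 with OmoMYC and 4 with SNF5. That gene was RFC3, a loader subunit, which gave 11879, 12893 and 9740.4 in the EGFP samples, 8786, 9244 and 8925 in the OmoMYC samples and 9585, 10094 and 7003 in the SNF5 samples. SNF5 replicate 2 was the one sample of RFC3 that reached the EGFP range, and the gene changed by −0.34 (SE 0.089, adjusted p = 0.0488) with OmoMYC and −0.38 (SE 0.089, adjusted p = 0.0121) with SNF5. PCNA, the clamp, gave 2916, 17033 and 4534 in the EGFP samples, 2024, 16208 and 5051 in the OmoMYC samples and 2564, 17406 and 4194 in the SNF5 samples. The 3 replicate 2 samples of PCNA were several times higher than the rest whatever the construct, and its changes of −0.14 and −0.088 did not pass. RFC1, RFC4 and RFC5 passed with neither.

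RPA1, the large subunit of the protein that coats single-stranded DNA, gave 5908, 5461 and 6171 in the EGFP samples, 4335, 4096 and 5518 in the OmoMYC samples and 4365, 3998 and 5014 in the SNF5 samples. RPA1 fell with both constructs, by 0.34 (SE 0.064, adjusted p = 0.0258) with OmoMYC and by 0.40 (SE 0.064, adjusted p = 0.00228) with SNF5 on the log2 scale. Only OmoMYC replicate 3 came within the range of the EGFP samples. RPA2 passed with SNF5 (−0.30, adjusted p = 0.0055), and RPA3 with neither.

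Genes that process Okazaki fragments and DNA ends included LIG1, the ligase, which was lower with both constructs at −0.32 (SE 0.066, adjusted p = 0.0286) with OmoMYC and −0.33 (SE 0.066, adjusted p = 0.00587) with SNF5. FEN1, the flap nuclease, gave 597, 699.6 and 676 in the EGFP samples, 417, 459 and 596 in the OmoMYC samples and 381, 479 and 596 in the SNF5 samples. No sample of FEN1 with either construct reached the EGFP range, but OmoMYC replicate 3 (595.6) and SNF5 replicate 3 (596.3) lay just under EGFP replicate 1 (596.6). The change of FEN1 was −0.46 (SE 0.12, adjusted p = 0.0157) with SNF5 and −0.43 (SE 0.12, adjusted p = 0.0513) with OmoMYC. DNA2, a nuclease and helicase, gave 3572, 2655 and 3032 in the EGFP samples, 2842, 2207 and 2932 in the OmoMYC samples and 2635, 1853 and 2526 in the SNF5 samples, a change of −0.41 (SE 0.07, adjusted p = 0.00295) with SNF5 and of −0.21 (SE 0.069, adjusted p = 0.0831) with OmoMYC, with each SNF5 sample below all EGFP samples. EXO1 and MCM8 passed with neither.

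Of 4 fork protection genes, TIPIN passed with both constructs and its partner TIMELESS with SNF5, where 4.42% of all genes were lower with OmoMYC and 16.5% with SNF5. TIMELESS (hg19 chr12:56810157-56843200, minus strand) gave 1622, 1694 and 1584 in the EGFP samples, 1357, 1290.0 and 1588 in the OmoMYC samples and 1202, 1084 and 1057 in the SNF5 samples. All SNF5 samples of TIMELESS were below all others, with a change of −0.55 (SE 0.093, adjusted p = 0.00281) that held with each library and number left out (−0.62 to −0.48), whereas OmoMYC replicate 3 reached the EGFP range, with a change of −0.21 (SE 0.093, adjusted p = 0.172). TIPIN gave 1527, 1319 and 1092 in the EGFP samples, 1073, 934 and 1006 in the OmoMYC samples and 1119, 911 and 865 in the SNF5 samples, with changes of −0.37 (SE 0.091, adjusted p = 0.0414) and −0.44 (SE 0.09, adjusted p = 0.00657). Among the genes for chromatin behind the fork, CHAF1A, a subunit of the assembly factor CAF-1, gave 3884, 3448 and 4014 in the EGFP samples, 2843, 2341 and 3607 in the OmoMYC samples and 3257, 2522 and 3303 in the SNF5 samples. CHAF1A changed by −0.38 (SE 0.082, adjusted p = 0.0307) with OmoMYC and −0.33 (SE 0.082, adjusted p = 0.0145) with SNF5. CHAF1B, its partner, passed with SNF5 (−0.38, adjusted p = 0.0223), and UHRF1, which reads hemimethylated DNA, with neither.

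The direct comparison of SNF5 with OmoMYC asks where the 2 constructs differed. It gave 1 replication gene higher and 2 lower of 54, against 11.5% and 7.38% of all genes, with a median of −0.025 for the replication genes and −0.013 for all genes. With gene body totals alone as scaling the split was 1 higher and 5 lower. MCM6 was higher with SNF5 by 0.42 (SE 0.094, adjusted p = 0.0147) on the log2 scale. TIMELESS was lower by 0.34 (SE 0.094, adjusted p = 0.0336) and POLA1, the catalytic subunit of the polymerase that makes primers, by 0.23 (SE 0.047, adjusted p = 0.011). With libraries left out, 1 at a time or all of 1 number, in 12 ways, TIMELESS stayed called in 4, with differences from −0.43 to −0.21, MCM6 in 6 (0.34 to 0.57) and POLA1 in 8 (−0.25 to −0.20). The TIMELESS call was lost without EGFP replicate 1, any 1 OmoMYC replicate, or SNF5 replicate 2 or 3, that of MCM6 without replicate 1 or 2 of OmoMYC or of SNF5, and that of POLA1 without replicate 1 of OmoMYC or of SNF5. POLA1 (hg19 chrX:24712064-25015102, plus strand) gave 10503, 10441 and 11744 in the EGFP samples, 10489, 10203 and 12068 in the OmoMYC samples and 8942, 9072 and 9960.4 in the SNF5 samples, with the SNF5 samples below all others and the OmoMYC samples overlapping with the EGFP ones. MCM4, ORC1, CDC6 and CDC45, which passed against EGFP with OmoMYC alone, did not pass this test, with MCM4 at 0.30 (SE 0.15, adjusted p = 0.205), so a difference between the constructs was not shown for them. Without the replicate block 0 of the 54 were called, and 0 were called with all libraries of replicate number 1 or of number 2 left out, 26 with those of number 3 left out. With 1 library left out the number ran from 0 without OmoMYC replicate 1 to 9 without OmoMYC replicate 3, with 1 without OmoMYC replicate 2, SNF5 replicate 1 or SNF5 replicate 2, and 5 without EGFP replicate 3.

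Levels per length are given as RPKM of the gene body, which are reads scaled to gene body length and to the library's gene body total times its RLE scaling factor. Among the 54 genes in EGFP cells these levels ranged from 0.838 ± 0.596 (SD, n = 3) for RPA3 to 20.4 ± 19.3 for PCNA. PCNA owed its SD to the high replicate 2 and did not differ beyond it from the next gene, MCM7, at 12.9 ± 0.324. These were followed by ORC6 at 6.90 ± 1.37 and MCM3 at 6.03 ± 0.186, and these last 2 did not differ beyond their spread. E2F2 lay at 1.93 ± 0.334 and POLA1 at 0.963 ± 0.0649.

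At the promoter-proximal window, the 50 bp with the most reads within 500 bp of the start, few replication genes passed the test. With OmoMYC 1 of 53 was higher and 0 were lower, against 1.63% and 0.169% of 11241 genes. With SNF5 0 were higher and 2 were lower, against 2.64% and 1.63%. Between SNF5 and OmoMYC 0 were higher or lower, against 0.48% and 0.347%. At an unadjusted p under 0.05 from edgeR, 3 were higher and 2 lower with OmoMYC, 5 higher and 13 lower with SNF5, and 2 in each direction between the constructs, and DESeq2 called 0 in every comparison. Over all genes 12.7% and 2.74% were higher and lower at that level with OmoMYC, 9.55% and 10.5% with SNF5, and 2.45% and 11.3% between the constructs. The medians of −0.10 with OmoMYC and −0.17 with SNF5 compare with 0.13 and −0.046 for all genes.

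EXO1, an exonuclease that trims DNA ends, was the gene that rose at its promoter with OmoMYC. It had 18.4, 97.1 and 35.6 in the EGFP samples, 23.8, 249 and 62.7 in the OmoMYC samples and 20.4, 129 and 68.1 in the SNF5 samples, each OmoMYC sample above the EGFP sample of its number and replicate 2 by the most. The log2 fold change of EXO1 was 0.98 (SE 0.26, adjusted p = 0.0443) with OmoMYC and 0.57 (SE 0.26, adjusted p = 0.218) with SNF5. LIG1 had 53, 119.8 and 112 in the EGFP samples, 41.2, 111 and 67.5 in the OmoMYC samples and 21.3, 90.4 and 56.3 in the SNF5 samples, a change of −0.85 (SE 0.24, adjusted p = 0.0328) with SNF5. DNA2 had 58.4, 417 and 240.3 in the EGFP samples, 80.1, 269.7 and 128 in the OmoMYC samples and 59.3, 190.2 and 125 in the SNF5 samples, a change of −0.77 (SE 0.23, adjusted p = 0.0462) with SNF5, and in the shallow replicate 1 the SNF5 value was not below the EGFP value. Leaving out EGFP replicate 2 or 3, or OmoMYC replicate 1 or 2, ended the EXO1 call (0 called). For SNF5 the number was 0 without EGFP replicate 2 or 3 or any SNF5 library, 1 without OmoMYC replicate 1 or 2, 10 without EGFP replicate 1 and 6 without OmoMYC replicate 3. None of the 53 was called at the promoter without the replicate block, in any comparison. With offsets from promoter-proximal totals in place of gene body totals the numbers were 0 with OmoMYC, 10 with SNF5 and 1 between the constructs.

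The pausing index is the density of reads in the promoter-proximal window over that in the gene body. It rose with OmoMYC for 3 of 53 genes and fell for 0, against 2.18% and 0.0806% of 11171 genes, and it rose with SNF5 for 4 and fell for 0, against 2.02% and 1.64%. Between SNF5 and OmoMYC 0 genes passed, against 0.125% higher and 1.1% lower. At an unadjusted p under 0.05, 8 were higher and 0 lower with OmoMYC, 11 higher and 2 lower with SNF5 and 2 higher and 3 lower between them, and DESeq2 called 1, 0 and 0. Over all genes 13.5% and 2.04% were higher and lower at that level with OmoMYC, 10.5% and 8.09% with SNF5, and 2.49% and 11.3% between them. The median log2 change was 0.20 with OmoMYC and 0.072 with SNF5, against 0.14 and 0.014 for all genes. These counts are small, and none of the genes was called without the replicate block.

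MCM7 was the gene called with both constructs. Its pausing index was 2.13, 22 and 9.5 in the EGFP samples, 4.95, 42 and 14.2 in the OmoMYC samples and 2.91, 44.4 and 19.4 in the SNF5 samples, and the index differed more between replicate numbers than between constructs, as the totals of the 2 regions do. Each OmoMYC and SNF5 sample of MCM7 was nevertheless above the EGFP sample of its number. The log2 change of MCM7 was 0.88 (SE 0.23, adjusted p = 0.0253) with OmoMYC and 0.88 (SE 0.23, adjusted p = 0.0193) with SNF5, made of more promoter-proximal reads (0.49 and 0.31, neither past the test) and fewer gene body reads. EXO1 had an index of 5.34, 23.6 and 14.9 in the EGFP samples, 9.87, 94.2 and 27.5 in the OmoMYC samples and 6.68, 42 and 35.4 in the SNF5 samples. EXO1 changed by 1.36 (SE 0.28, adjusted p = 0.00396) with OmoMYC and by 0.88 (SE 0.28, adjusted p = 0.061) with SNF5.

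E2F3 had an index of 7.63, 95.1 and 29.6 in the EGFP samples, 19.3, 133 and 48.3 in the OmoMYC samples and 14.7, 145 and 46.3 in the SNF5 samples, with a change of 0.79 (SE 0.22, adjusted p = 0.038) with OmoMYC and 0.70 (SE 0.22, adjusted p = 0.0522) with SNF5. POLE2 had 9.19, 19.4 and 14.3 in the EGFP samples, 12.1, 32.4 and 16.4 in the OmoMYC samples and 9.23, 47.9 and 34.7 in the SNF5 samples, where SNF5 replicates 2 and 3 were above all EGFP samples, with a change of 0.97 (SE 0.28, adjusted p = 0.034) with SNF5. RFC5 had 5.23, 124 and 84.4 in the EGFP samples, 8.38, 175 and 99.7 in the OmoMYC samples and 9.26, 250 and 126 in the SNF5 samples, and the change was 0.80 (SE 0.23, adjusted p = 0.0356) with SNF5. GINS2 had 5.17, 8.88 and 6.27 in the EGFP samples, 6.42, 30 and 11.6 in the OmoMYC samples and 7.7, 16.7 and 21.1 in the SNF5 samples, and changed by 1.13 (SE 0.32, adjusted p = 0.0284) with SNF5 and 1.07 (SE 0.33, adjusted p = 0.0612) with OmoMYC. The numbers depended on single libraries. With OmoMYC 0 were called without EGFP replicate 2 or OmoMYC replicate 2 and 1 without OmoMYC replicate 1. With SNF5 0 were called without EGFP replicate 2 or SNF5 replicate 3, 1 without SNF5 replicate 2, 2 without EGFP replicate 3 or OmoMYC replicate 2, 9 without EGFP replicate 1 and 7 without OmoMYC replicate 3.

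**Figure D4:**
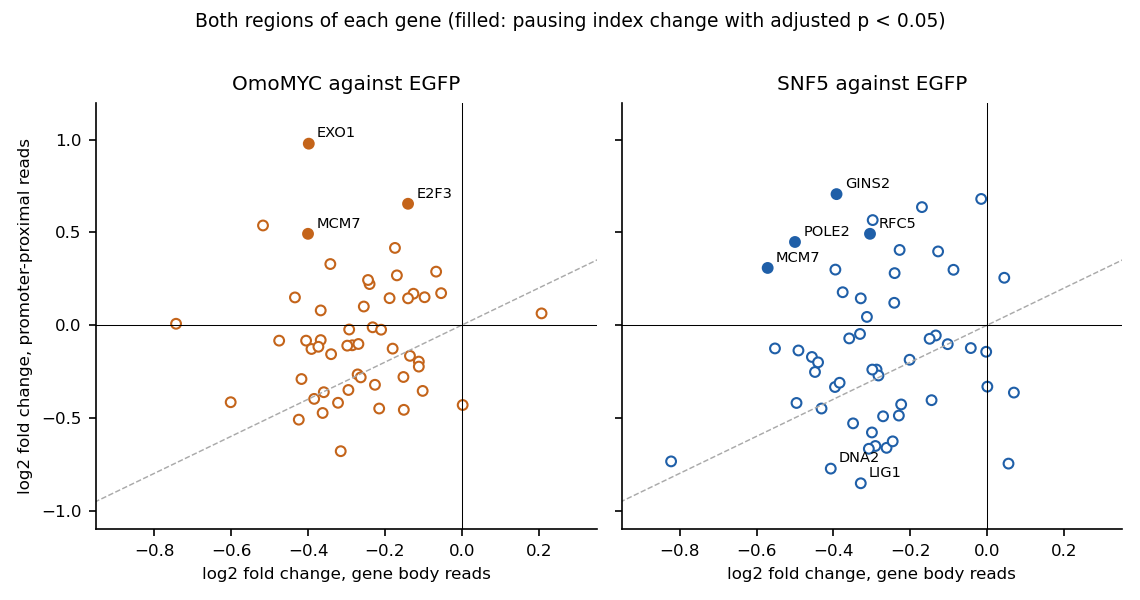
Log2 fold change of promoter-proximal reads (y axis) against that of gene body reads (x axis) for the 53 replication genes tested in both regions, with OmoMYC (left) and SNF5 (right) against EGFP. Filled points passed the test of the pausing index, named genes passed at least 1 of the tests of the pausing index and the promoter, and the dashed line marks equal change in both regions. EXO1 stands highest with OmoMYC (0.98 at the promoter), and LIG1 lowest with SNF5 (−0.85).

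MYC ChIP-Seq peaks were called in each sample, and a gene was counted where a peak summit lay within 1 kb of its start. In EGFP replicate 1, with 940 peaks, 2 of 55 replication genes had a peak (3.64%), against 4.35% of all 20367 genes, and in EGFP replicate 2, with 5396 peaks, 26 of 55 had one (47.3%), against 23.1%. Peaks of both samples that overlapped were found at DBF4 and POLD2 only, 2 of 55 against 4.34% of all genes. The share of replication genes with a peak therefore turned on the sample. The list of each OmoMYC sample held 1 line, at the same position in both, which its own name marks as fake and whose summit lies past the end of its interval. It was read as a placeholder and both lists as 0 peaks. The lists of the SNF5 samples held 137 and 27 peaks, with 0 at replication genes, against 0.614% and 0.0786% of all genes. With shares this low over all genes, the 0 is not read as a result about the replication genes.

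At POLD2 (hg19 chr7:44154286-44163147, minus strand) the summits lay 196 and 198 bp downstream of the start, with a fold enrichment over background of 6.85 and 8.16. At DBF4 (hg19 chr7:87505544-87538856, plus strand) they lay 337 and 228 bp downstream, at 5.66 and 9.51. Among genes with a peak in replicate 2 alone, MCM4 had the strongest (9.38), followed by MCM8 (7.57) and POLD1 (7.16), and MCM7 the weakest (2.92). CACGTG was within 100 bp of both summits at POLD2 and of neither at DBF4. Among all 921 peaks of replicate 1 with an overlapping peak in replicate 2, 51.8% held it. The POLD2 sequence, with the E-box in capitals, lies 290 bp past the start and reads on the strand of the gene as follows.
POLD2 MYC peak (hg19 chr7:44162843-44162872, minus strand): tcactcgttagaCACGTGtgcggagcctgt

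Genes with and without these features were then set beside each other. Of 26 replication genes with a peak in EGFP replicate 2, 7 had lower gene body reads with OmoMYC and 14 with SNF5 (medians −0.26 and −0.28). Of 28 tested genes without one, 10 and 15 had (medians −0.28 and −0.31). Over all genes the shares were 9.6% and 29.1% with such a peak and 2.21% and 11.1% without. As shares, the replication genes called were 26.9% with a peak and 35.7% without for OmoMYC, and 53.8% and 53.6% for SNF5, and neither difference was tested. Of 14 replication genes with an E2F site, 7 were lower with OmoMYC and 8 with SNF5, and of 33 tested genes with a promoter but no site, 9 and 16 were. Over all 182 tested genes with an E2F site, 10.4% and 18.1% were lower. Of 8 replication genes with the E-box in the promoter, 4 were lower with OmoMYC and 6 with SNF5, and of 39 tested genes with a promoter but no E-box, 12 and 18 were. Over all 1010 tested genes with an E-box, 5.15% and 24.7% were lower, and these differences were not tested either.

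**Figure D5:**
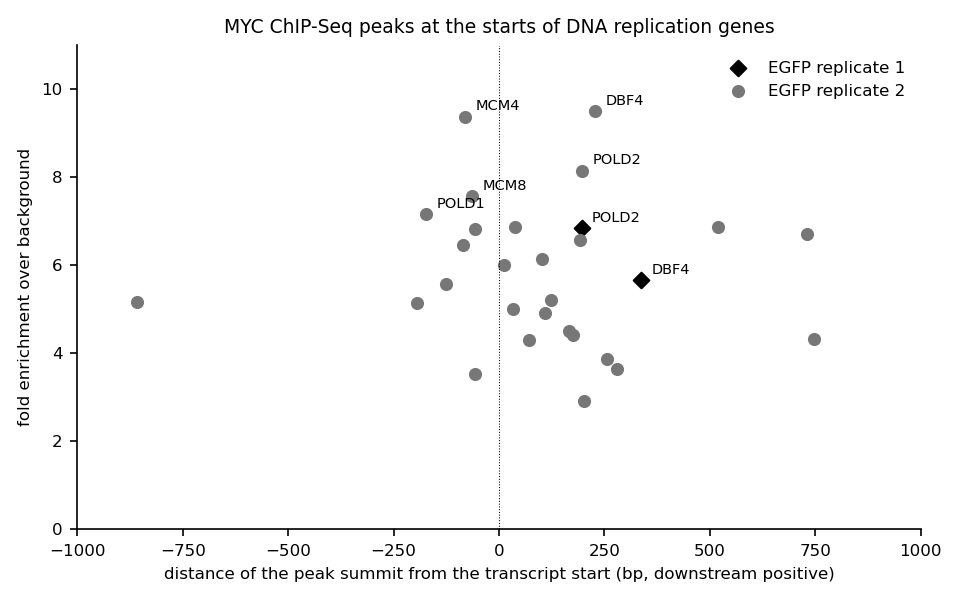
Fold enrichment of MYC ChIP-Seq peaks over background (y axis) by distance of the summit from the transcript start (x axis, bp, downstream positive) at replication genes in EGFP cells. Diamonds are the 2 peaks of replicate 1 and circles the peaks of replicate 2, and DBF4 and POLD2 are the genes with both.

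ATAC-Seq marks open chromatin by where a transposase inserts. For 48 replication genes with a RefSeq start in GRCh38.p14, the build of these peaks, a summit lay within 1 kb in 40, 42 and 32 genes in the EGFP samples, in 30, 45 and 35 in the OmoMYC samples and in 45, 45 and 43 in the SNF5 samples. Of all 13295 genes with such a start, 36.0% to 49.9% had one in the EGFP samples, 33.2% to 53.2% in the OmoMYC samples and 50.2% to 56.6% in the SNF5 samples. The SNF5 values were all above the highest of EGFP, but the SNF5 samples also had more peaks in all (22722 to 33596, against 9208 to 17817 with EGFP and 7260 to 23684 with OmoMYC), and the part of that in the count was not tested. In at least 2 of 3 samples 40, 40 and 45 genes were open with EGFP, OmoMYC and SNF5. CDT1, E2F2 and PRIM2 had no site in any of the 9 samples, and 2 further genes had none in the EGFP samples: RPA1, with a site in 2 OmoMYC and 3 SNF5 samples, and FEN1, with a site in 1 and 2. TIMELESS and POLA2 had one in 1 EGFP, 1 OmoMYC and 3 SNF5 samples, and PRIM1 in 1, 2 and 3.

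A further 42 genes of the pathway were listed, of which 41 could be tested. With OmoMYC 1 of 41 was higher in gene body reads and 4 were lower (2.44% and 9.76%, against 4.1% and 4.42% of all genes), and with SNF5 2 were higher and 11 lower (4.88% and 26.8%, against 17.6% and 16.5%). Between the constructs 3 of 41 were higher and 2 lower with SNF5, where 11.5% and 7.38% of all genes were. Their medians were −0.10, −0.11 and −0.004. POLE3, a histone-fold subunit of polymerase epsilon, was lower with both constructs, at −0.70 (SE 0.092, adjusted p = 0.0133) with OmoMYC and −0.63 (SE 0.092, adjusted p = 0.0014) with SNF5. RNASEH2C, a subunit of the enzyme that removes RNA from DNA, changed by −0.37 and −0.46, and TFDP1, the partner of E2F proteins, by −0.31 and −0.31. FBXO5, an inhibitor of the anaphase-promoting complex, was lower with OmoMYC (−0.29), and RNASEH2A and RECQL4, a helicase, with SNF5 (−0.52 and −0.45). RB1, which restrains E2F factors and is named here after its values were seen, had 4402, 5121 and 4302 normalised reads in the EGFP samples, 5523, 6034 and 4839 in the OmoMYC samples and 6250.1, 6661 and 5853 in the SNF5 samples. RB1 was higher with OmoMYC (0.24 (SE 0.054, adjusted p = 0.0333)) and with SNF5 (0.44 (SE 0.054, adjusted p = 0.000581)), and higher with SNF5 than with OmoMYC (0.20 (SE 0.054, adjusted p = 0.0334)). Its relatives RBL1 and RBL2, also on the list, passed in no comparison. RBL1 was at −0.1 with OmoMYC and 0.065 with SNF5, and RBL2 at 0.022 and 0.039. Of the E2F genes on this list, E2F4 and E2F6 were lower with SNF5 than with EGFP (−0.25 and −0.22). E2F6 was also lower with SNF5 than with OmoMYC (−0.26), and E2F5, E2F7 and E2F8 passed in no comparison.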

How the data were processed

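PRO-Seq was measured in 9 samples of G401 cells, 3 per construct, MYC ChIP-Seq in 6 and ATAC-Seq in 9. For PRO-Seq the authors trimmed reads with cutadapt, aligned them with Bowtie2 to hg19 and ran NRSA over RefSeq transcripts. Raw counts in the deposited table cover a promoter-proximal window, the 50 bp with the most reads, and the gene body from 1000 bp past the start. The gene body signal (density in reads per bp) that the authors computed in the same table was checked against count and length and otherwise left out. For ChIP-Seq and ATAC-Seq the deposited lists give each peak that the authors called per sample with MACS2, in hg19 and hg38, with a fold ratio over background and its −log10 q and −log10 p. Read depth is not part of them, so none is known for a peak. IgG samples were not used here.

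Of 20582 transcripts, 215 further transcripts of a symbol were dropped. Gene body totals times RLE factors gave the offsets of both regions. Counts were tested with edgeR 4.0.16 in R 4.3.3 (quasi-likelihood test, all 9 samples in 1 fit, genes with a mean of at least 10 counts) with the replicate number as a block, as the study's methods account for batch, and p-values were Benjamini-Hochberg adjusted over all genes, with 0.05 as threshold. A change of pausing index was tested as a construct-by-region interaction, with each sample and the replicate number within region as further terms. After removal of each construct's mean, samples of the same number correlated across genes at 0.767 to 0.889 for gene body counts, 0.69 to 0.856 for promoter-proximal counts and 0.546 to 0.845 for the pausing index, and other samples at −0.704 to 0.146, so the numbers were taken to pair samples, a pairing read from the data. A log2 fold change has as SE its size over the root of its F statistic. Methods were tested on simulated data.

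Peak summits were placed against starts of the PRO-Seq table (hg19) or RefSeq (GRCh38.p14), and no coordinate was converted. The genes, lists and motifs were chosen with earlier results of these data known. Named in full are up to 12 genes per comparison with the largest change among those called in the gene body, those called at the promoter or in the pausing index, genes with a MYC peak in both EGFP samples, and up to 4 called genes of the wider list. RB1, its relatives and the E2F genes of the wider list were named outside this rule. Alternatives varied the scaling, the test (DESeq2 1.42.0), the filter, the block, the samples in the fit and the peak rules. Other calculations used Python with NumPy, pandas and pysam.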

Additional observations from a re-analysis of the deposited data

How the results depend on the processing

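No gene named as called changed sign under any alternative run. The number of replication genes called in gene body counts (17, 29 and 3 for OmoMYC against EGFP, SNF5 against EGFP and SNF5 against OmoMYC) became 0, 1 and 0 without the replicate block, and 8 with OmoMYC and 6 between the constructs with gene body totals alone as scaling. Between the constructs the calls were 1 higher and 2 lower with SNF5, 1 and 5 with totals alone, and 22 and 4 without replicate 3, where the median difference of the replication genes was 0.072 in place of −0.025 (log2). With samples left out the counts ran from 0 to 50, from 4 to 44 and from 0 to 26. At the promoter (1, 2 and 0) it was 0 with OmoMYC and with SNF5 without the block and with DESeq2, and 0, 10 and 1 with promoter-proximal offsets. With SNF5 it was 1 with a mean of at least 50 counts or with only the 2 constructs compared. With samples left out it ran from 0 to 1 and from 0 to 10, and stayed at 0 between the constructs. For the pausing index (3, 4 and 0) it was 0 and 0 without the block, 1 and 0 with DESeq2, and with SNF5 2 at a mean of at least 50 counts and 1 with only the 2 constructs compared. With samples left out it ran from 0 to 7, from 0 to 9 and from 0 to 2. The causes were not tested beyond the smaller number of samples. TMM scaling and no filter kept every count within 1.5 times. None of these alternative numbers is set beside the share of all genes called under the same setting.

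The 2 genes with a MYC peak in both EGFP samples became 1 with a reciprocal overlap of at least 50%, 26 with a peak in either sample, and 2 to 26 with 1 sample left out. The 40 genes open with OmoMYC became 25 when all 3 samples were required, and 25 to 35 with 1 sample left out. With 1 left out, a site was required in both samples that remained, a stricter rule under which the count cannot rise. The promoter-proximal counts rest on 518900 to 672874 reads per library in replicate 1, and what this depth does to the number of calls there was not tested.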
